A study of Mus musculus with 4 samples.

Results

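The gene expression of induced regulatory T cells (iTreg) was compared with that of natural regulatory T cells (natural Treg) on mouse Illumina bead arrays. The members were 3 of the series' 4 arrays: the conventional iTreg array and the vitamin C iTreg array on one side, and the natural Treg array on the other. A gene was counted only where both iTreg arrays differed from natural Treg in the same direction. Conventional iTreg were made from naive CD4+ GFP-negative CD44low cells, cultured 5 to 6 days with antibodies to CD3 and to CD28 (1 µg/ml each), TGF-beta (10 ng/ml) and IL-2 (15 ng/ml). The vitamin C iTreg had the same culture plus vitamin C at 10 µg/ml, and both were re-sorted at its end as GFP+CD25+ cells. Natural Treg were CD4+CD8-GFP+ cells sorted ex vivo from lymph node and spleen, with no CD25 gate named. The fourth array, naive CD4 cells (CD4+CD8-GFP-CD44low, sorted ex vivo), is given as background, since the iTreg cultures started from such cells. All cells came from male reporter mice of the strain B6.Cg-Foxp3tm2Tch/J, in which green fluorescent protein (GFP) marks cells that express Foxp3. Each group was 1 array from 550 ng of total RNA, and the labels do not say how many mice stood behind an array. The series text gives 5 days of culture for iTreg where the sample labels give 5 to 6.

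Regulatory T cells restrain immune responses and are defined by the transcription factor Foxp3. Natural Treg mostly mature in the thymus and live among antigen and cytokines in lymphoid tissue, whereas iTreg arise from naive CD4 cells when the T cell receptor is engaged in the presence of TGF-beta and IL-2. Interleukin 2 receptor alpha (CD25) and the inhibitory receptor Ctla4 are shared hallmarks, while Helios, the product of Ikzf2, is commonly used to mark natural Treg.

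Levels are background-corrected, quantile-normalized log2 signals, and differences are iTreg minus natural Treg on that scale, given for the conventional and then the vitamin C array. A gene was detected where its detection p-value, from the array's negative controls, was under 0.01, and it was called higher or lower where both iTreg arrays differed from natural Treg by at least 2-fold in 1 direction. A gene list is described by its detected members, and its median is that of the mean of both differences over members compared on both arrays. With 1 array per group no gene was tested. Both iTreg arrays had different treatments, so they are not replicates, and they share the 1 natural Treg array. Culture, stimulation and the CD25 gate all differed between iTreg and natural Treg and cannot be told apart. In RNA from a sorted population, fewer cells that express a gene and less RNA per cell cannot be told apart either.

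Of 8143 genes detected on at least 1 of the 3 arrays, 768 (9.43%) were called higher on both iTreg arrays and 863 (10.6%) were called lower. The counts of called members in each gene list are to be read against these shares. No gene was 2-fold higher on one iTreg array and 2-fold lower on the other. Among the higher genes, 103 were at least 8-fold higher on both, and among the lower genes 68 were at least 8-fold lower on both. A further 119 genes were 2-fold higher and 100 were 2-fold lower on the conventional array alone, and 172 and 185 on the vitamin C array alone. With median centring in place of quantile normalization, 909 genes were called higher and 667 lower, so that 57.7% of the calls were higher, against 47.1% in the main setting. The median difference of all compared genes was 0.07 with that scaling and -0.07 in the main setting, against which the differences given here are to be read.

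Of 6901 genes detected on all 3 arrays, 5197 (75.3%) lay within 2-fold of natural Treg on both iTreg arrays. The median absolute difference from natural Treg was 0.46, and the median gap between the iTreg arrays was 0.14, with 99.0% of these genes within 2-fold between them. Both differences subtract the same natural Treg array. The 560 called-higher genes measured on all 3 arrays, 8.11% of the 6901, had median log2 levels of 10.80 in iTreg, 8.63 in natural Treg and 8.12 in naive CD4. The 648 called-lower genes, 9.39%, had medians of 8.86 in iTreg, 10.62 in natural Treg and 10.55 in naive CD4. The order of iTreg and natural Treg in these medians is fixed by the call. Naive CD4 was not compared in the call, but it entered the normalization and the choice of each gene's probe. The naive CD4 median was nearer to that of natural Treg than to that of iTreg in both sets.

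The remaining calls rest on a bound. In 208 called-higher genes natural Treg was below detection, and in 215 called-lower genes an iTreg array was, 162 of them with both. There the undetected value was set to the lowest detected signal of its array, or to its own value if higher, so the difference is at least the one given. For the called genes, 323 further probes were detected on all 3 arrays, and 321 of them pointed the same way as the gene's call, 240 past 2-fold on both iTreg arrays. The exceptions were probes of Mcph1 and Tmem168. Such probes read the same labelled RNA on the same array.

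**Figure D1:**
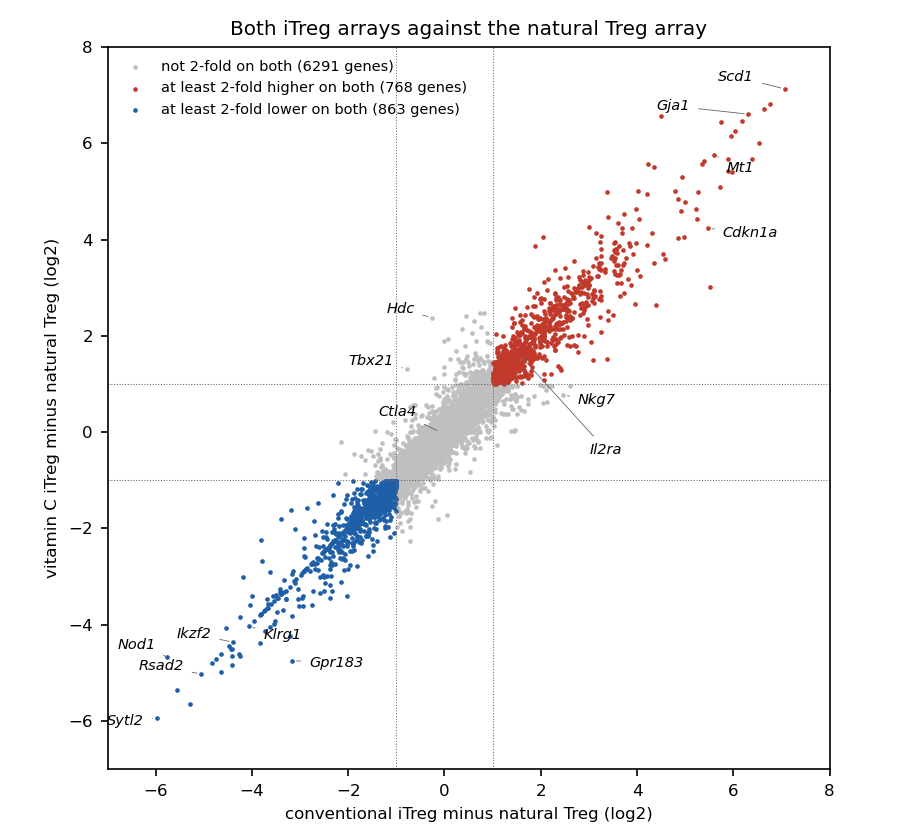
Each point is 1 of the genes compared on both iTreg arrays, with conventional iTreg minus natural Treg on the x axis and vitamin C iTreg minus natural Treg on the y axis (both log2). Dotted lines mark 2-fold, red points the 768 genes higher and blue points the 863 genes lower on both, and since both axes subtract the same natural Treg array the points must lie partly along the diagonal.

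The sorted populations carried the markers of CD4 T cells. All 7 CD4 T cell markers with a probe were detected on each array. Cd4 had a log2 signal of 9.41 on the conventional and 9.43 on the vitamin C iTreg array, against 9.49 on the natural Treg array. Foxp3 had log2 signals of 8.27 and 8.05 in conventional and vitamin C iTreg, against 8.09 in natural Treg and 4.80 (not detected) in naive CD4. Foxp3 was read at a like level on the 3 Treg arrays, with log2 differences of 0.18 and -0.04, and was not detected in naive CD4. The 3 Treg populations were sorted as GFP+ and naive CD4 as GFP-negative. Detection of Foxp3 in the former and not in the latter cannot be told apart from that gate. Cd4 was likewise a sorting marker.

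The transcription factors that act beside Foxp3 split. Of 26 detected factors of the T cell list, 3 (11.5%) were called higher and 9 (34.6%) lower, with a median log2 difference of -0.43. The shares over all detected genes were 9.43% and 10.6%. Ikzf2, which encodes Helios, had a log2 signal of 6.15 on the conventional and 5.73 on the vitamin C iTreg array, neither of them detected, against 10.56 on the natural Treg array, with 5.20 (not detected) for naive CD4. It was detected in natural Treg alone, and its log2 differences were at or below -4.39 and -4.36. Ikzf4, its relative Eos, had log2 signals of 11.85 and 11.68 in conventional and vitamin C iTreg, against 11.63 in natural Treg, with no difference near 2-fold.

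The 3 called-higher factors were Irf8, Irf4 and Nfil3. Irf4, which is induced by T cell receptor signals and needed for effector Treg, had a log2 signal of 13.86 on the conventional and 13.80 on the vitamin C iTreg array, against 11.55 on the natural Treg array, with 9.10 for naive CD4. Irf8, better known from myeloid and B cells, had log2 signals of 12.21 and 11.95 in conventional and vitamin C iTreg, against 9.37 in natural Treg. Nfil3, a basic leucine zipper repressor, had log2 signals of 11.97 and 12.55 in conventional and vitamin C iTreg, against 10.55 in natural Treg. All 3 were higher on both iTreg arrays than on either ex vivo array.

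The called-lower factors besides Ikzf2 were Stat4, Id3, Gata3, Satb1, Lef1, Ikzf1, Bcl6 and Bcl11b. Stat4, which relays IL-12 signals, had a log2 signal of 9.09 on the conventional and 8.05 on the vitamin C iTreg array, against 12.29 on the natural Treg array, with 12.23 for naive CD4. Id3, an inhibitor of E proteins, had log2 signals of 6.95 and 6.36 in conventional and vitamin C iTreg, against 9.97 in natural Treg. Gata3, the Th2 master regulator that is also expressed by tissue Treg, had log2 signals of 9.15 and 8.68 in conventional and vitamin C iTreg, against 11.42 in natural Treg. Stat4 was about as high in naive CD4 as in natural Treg, whereas Gata3 and Id3 were highest in natural Treg. Satb1, a chromatin organizer, had log2 differences of -1.92 and -2.48, and Lef1, a Wnt effector of naive cells, of -1.73 and -2.31.

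Of 21 detected Treg suppressive and surface molecules, 7 were called higher and 10 lower, with a median log2 difference of -1.16. Of the 17 measured on all 3 arrays, 7 were called higher and 7 lower, with a median of -0.56. The median was -0.66 at a detection limit of 0.05 and -0.61 with no filter. Il2ra, the CD25 chain on which iTreg were gated, had a log2 signal of 13.32 on the conventional and 13.38 on the vitamin C iTreg array, against 11.77 on the natural Treg array, with 5.23 (not detected) for naive CD4. Its difference cannot be told apart from that gate. Ctla4 had log2 signals of 13.97 and 14.04 in conventional and vitamin C iTreg, against 14.05 in natural Treg and 8.80 in naive CD4, and its log2 differences were -0.08 and -0.0019. Ctla4 was thus at one level on the 3 Treg arrays.

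The other called-higher members were Lgals3, Lgals1, Tgfb1, Nt5e, Capg and Dgat2. Lgals3, which encodes galectin-3, had a log2 signal of 13.92 on the conventional and 14.37 on the vitamin C iTreg array, against 10.23 on the natural Treg array, with 6.52 (not detected) for naive CD4. Lgals1, which encodes galectin-1, had log2 signals of 14.05 and 13.87 in conventional and vitamin C iTreg, against 12.56 in natural Treg. Tgfb1, the cytokine that also went into the culture as protein, had log2 signals of 11.30 and 11.34 in conventional and vitamin C iTreg, against 9.96 in natural Treg. Nt5e, the ectoenzyme CD73 that makes adenosine, had log2 signals of 14.69 and 14.73 in conventional and vitamin C iTreg, against 13.66 in natural Treg, just past 2-fold on both.

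Among the 10 called-lower members were Il10, Itgae, Klrg1, Gpr83 and Fgl2. Il10, the anti-inflammatory cytokine, had a log2 signal of 5.43 on the conventional and 5.84 on the vitamin C iTreg array, neither of them detected, against 9.05 on the natural Treg array, with 5.04 (not detected) for naive CD4. Klrg1, an inhibitory lectin of effector Treg, had log2 signals of 5.07 and 4.93, both undetected, in conventional and vitamin C iTreg, against 10.23 in natural Treg. Both were detected in natural Treg alone, with log2 differences at or below -2.88 and -2.85 for Il10 and -4.07 and -4.04 for Klrg1.

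Itgae, the CD103 integrin chain that TGF-beta can induce, had a log2 signal of 10.85 on the conventional and 11.07 on the vitamin C iTreg array, against 13.46 on the natural Treg array, with 6.69 for naive CD4. It was detected on both iTreg arrays and in naive CD4, and the natural Treg array was the highest. Gpr83, an orphan receptor of the Treg signature, had log2 signals of 11.94 and 11.90 in conventional and vitamin C iTreg, against 14.34 in natural Treg. The iTreg levels of Gpr83 were close to the naive CD4 level. Fgl2, a secreted suppressor, had log2 signals of 5.70 and 5.66, both undetected, in conventional and vitamin C iTreg, against 7.91 in natural Treg.

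Nrp1 and Ebi3 did not reach a call. Nrp1, a semaphorin receptor often used to tell natural from induced Treg, had a log2 signal of 12.88 on the conventional and 12.05 on the vitamin C iTreg array, against 13.02 on the natural Treg array, with 7.43 for naive CD4. Its log2 differences were -0.14 and -0.97, the second just short of 2-fold. Ebi3, a subunit of IL-35, had log2 signals of 10.10 and 9.26 in conventional and vitamin C iTreg, against 10.34 in natural Treg, below natural Treg by 2-fold on the vitamin C array alone.

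**Figure D2:**
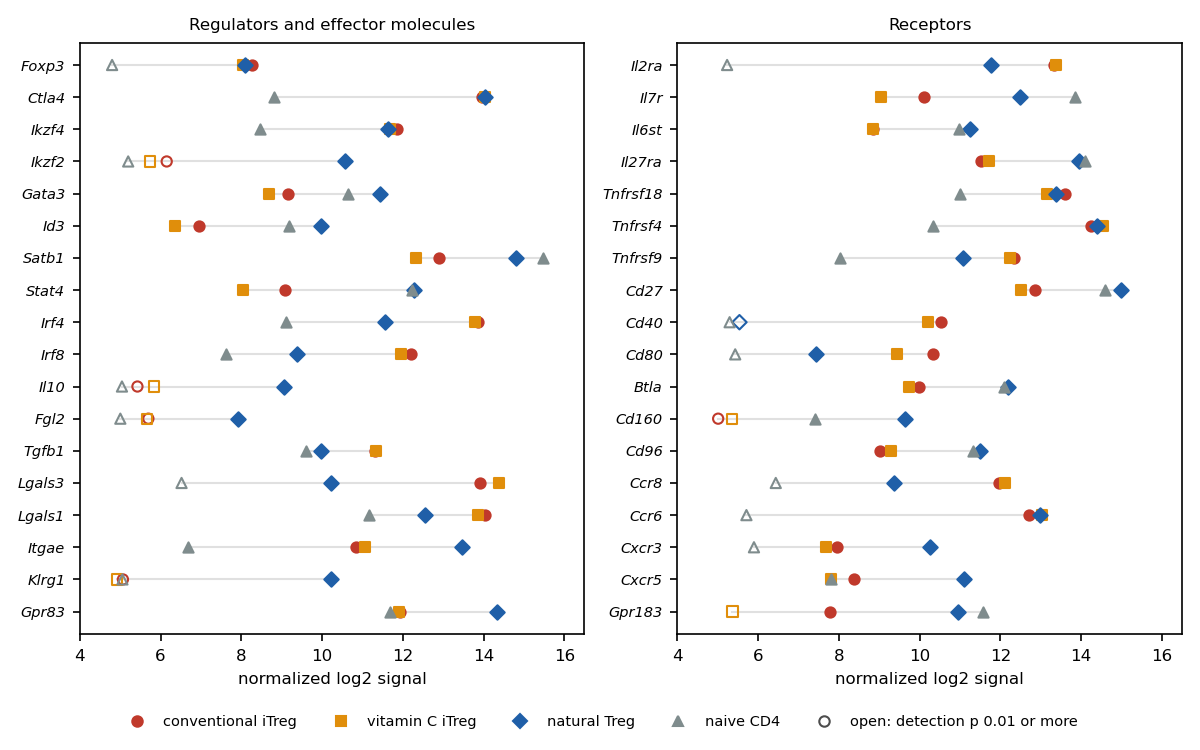
Normalized log2 signal (x axis) of 18 regulators and effector molecules and of 18 receptors on the conventional iTreg, vitamin C iTreg, natural Treg and naive CD4 arrays, 1 point per array and open where the gene was not detected. Foxp3 and Ctla4 lie at one level on the 3 Treg arrays, while Ikzf2, Il10 and Klrg1 are filled on the natural Treg array alone.

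Of 13 detected receptors of the TNF receptor superfamily, which costimulate T cells or induce death, 3 were called higher and 3 lower, with a median log2 difference of -0.02. Cd40, the receptor by which antigen-presenting cells are licensed, had a log2 signal of 10.52 on the conventional and 10.21 on the vitamin C iTreg array, against 5.54 (not detected) on the natural Treg array, with 5.29 (not detected) for naive CD4. Its log2 differences were at least 4.21 and 3.90, and it was detected on the iTreg arrays alone. Tnfrsf9, the costimulator 4-1BB, and Tnfrsf13b, a receptor for BAFF, had log2 differences of 1.26 and 1.16 and of 1.60 and 2.33.

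Cd27, the costimulator bound by CD70, had a log2 signal of 12.87 on the conventional and 12.50 on the vitamin C iTreg array, against 15.00 on the natural Treg array, with 14.60 for naive CD4. Tnfrsf25, known as DR3, and Fas, the death receptor, had log2 differences of -1.85 and -1.82 and of -1.77 and -1.64. The Treg receptors Tnfrsf18 (GITR) and Tnfrsf4 (OX40) showed no call, with log2 differences of 0.20 and -0.23 and of -0.17 and 0.13. The family thus held members of each kind, with its Treg hallmarks GITR and OX40 near the natural Treg level.

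Of 19 detected checkpoint and costimulatory molecules, 2 were called higher and 10 lower, with a median log2 difference of -1.08. The higher ones, Cd80 and Pdcd1lg2, encode ligands: CD80 binds Cd28 and Ctla4, and PD-L2 binds PD-1. Cd80 had a log2 signal of 10.33 on the conventional and 9.43 on the vitamin C iTreg array, against 7.43 on the natural Treg array, with 5.43 (not detected) for naive CD4. Pdcd1lg2 had log2 signals of 9.61 and 9.76 in conventional and vitamin C iTreg, against 8.41 in natural Treg. The other PD-1 ligand, Cd274 (PD-L1), went the opposite way, with log2 signals of 11.26 and 11.37 in conventional and vitamin C iTreg, against 12.53 in natural Treg.

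The lower members included SLAM family receptors and the receptors of HVEM and of nectins. Cd160, which binds HVEM, had a log2 signal of 5.01 on the conventional and 5.35 on the vitamin C iTreg array, neither of them detected, against 9.63 on the natural Treg array, and Btla, another HVEM receptor, had log2 signals of 9.98 and 9.75 in conventional and vitamin C iTreg, against 12.19 in natural Treg. Cd96 had log2 differences of -2.46 and -2.18, Cd84 of -1.81 and -2.00 and Slamf6 of at or below -1.72 and -1.69. Icos, Lag3 and Pdcd1 reached no call.

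Of 23 detected interleukin and TGF-beta receptors, 1 was called higher and 7 lower, with a median log2 difference of -0.74. Il18r1, a chain of the IL-18 receptor, was the higher one, with a log2 signal of 12.16 on the conventional and 12.00 on the vitamin C iTreg array, against 10.96 on the natural Treg array. Il6st, the gp130 chain shared by IL-6 family cytokines, had log2 signals of 8.83 and 8.85 in conventional and vitamin C iTreg, against 11.25 in natural Treg. Il27ra, which pairs with gp130 to bind IL-27, had log2 signals of 11.51 and 11.73 in conventional and vitamin C iTreg, against 13.96 in natural Treg. Both chains of the IL-27 receptor were therefore called lower.

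Il7r, the receptor that keeps naive cells alive, had a log2 signal of 10.12 on the conventional and 9.05 on the vitamin C iTreg array, against 12.49 on the natural Treg array, with 13.84 for naive CD4, an order in which naive CD4 was highest and both iTreg arrays lowest. Il1r2, an IL-1 decoy receptor, had log2 signals of 8.55 and 8.92 in conventional and vitamin C iTreg, against 10.36 in natural Treg and 5.06 (not detected) in naive CD4. Ifnar2, a chain of the type I interferon receptor, had log2 signals of 8.87 and 8.58 in conventional and vitamin C iTreg, against 10.26 in natural Treg. Tgfbr1 and Tgfbr2, which bind the TGF-beta of the culture, reached no call, with log2 differences of 0.26 and -0.04 and of -0.41 and -0.69.

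Of 18 detected chemokine and homing receptors, 3 were called higher and 5 lower, with a median log2 difference of 0.16. Of the 14 measured on all 3 arrays, 1 was called higher and 4 lower, with a median of -0.03. With no filter the median was -0.01, so its sign depended on the detection filter. Ccr8, a receptor of Treg in tissues and tumours, had a log2 signal of 11.96 on the conventional and 12.11 on the vitamin C iTreg array, against 9.37 on the natural Treg array, with 6.44 (not detected) for naive CD4. Cx3cr1, the fractalkine receptor, was detected on the iTreg arrays alone, with log2 signals of 8.87 and 8.69 in conventional and vitamin C iTreg, against 5.50 (not detected) in natural Treg. Ccr4, which guides cells to skin, had log2 differences of 1.06 and 2.03, at or above these since natural Treg was not detected. Without background correction their mean was 0.91, short of 2-fold.

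The lower members were Cxcr5, Cxcr3, Gpr183, the integrin chain Itgb7 and the lipid receptor S1pr4. Cxcr5, which leads cells into B cell follicles, had a log2 signal of 8.38 on the conventional and 7.80 on the vitamin C iTreg array, against 11.10 on the natural Treg array, with 7.81 for naive CD4. Cxcr3, a receptor of Th1 sites, had log2 signals of 7.95 and 7.68 in conventional and vitamin C iTreg, against 10.26 in natural Treg. Gpr183, an oxysterol receptor that positions cells at follicle borders, had log2 signals of 7.78 and 5.36 (not detected) in conventional and vitamin C iTreg, against 10.94 in natural Treg and 11.57 in naive CD4. Gpr183 differed between the iTreg arrays as well, being detected on the conventional array alone of that pair. Ccr6, a receptor of Th17 cells and Treg, had log2 signals of 12.70 and 13.03 on the iTreg arrays against 12.99 on the natural Treg array, with no call.

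Of 21 detected effector cytokines and chemokines, 4 (19.0%) were called higher and 4 (19.0%) lower, with a median log2 difference of -0.21. Of the 13 measured on all 3 arrays, 3 were called higher and 1 lower, with a median of -0.27. Ccl3 and Ccl4, paired chemokines that draw other leukocytes to inflamed tissue, were both higher. Ccl4 had a log2 signal of 11.46 on the conventional and 11.86 on the vitamin C iTreg array, against 7.42 on the natural Treg array, with 6.57 (not detected) for naive CD4. Ccl3 had log2 signals of 9.54 and 10.27 in conventional and vitamin C iTreg, against 4.74 (not detected) in natural Treg. Fasl, the ligand of Fas, and Lta, lymphotoxin alpha, had log2 differences of 1.72 and 1.95 and of 1.20 and 1.47.

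Il16, Cxcl10, Tnfsf8 and Ifng were lower. Ifng, the Th1 cytokine, had a log2 signal of 4.99 on the conventional and 5.35 on the vitamin C iTreg array, neither of them detected, against 7.22 on the natural Treg array. Cxcl10, a chemokine induced by interferons, had log2 signals of 4.73 and 5.04, both undetected, in conventional and vitamin C iTreg, against 7.77 in natural Treg. Both calls rest on bounds, and both were lost without background correction, where the mean log2 difference was -0.53 for Ifng and -0.89 for Cxcl10. Tnfsf8 lost its call in that setting too, with a mean log2 difference of -0.90.

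Of 9 detected cytotoxic granule and killer lectin genes, 2 were called higher and 3 lower. Ctsw, a lysosomal protease of cytotoxic cells, was higher, with log2 signals of 14.06 and 14.01 on the iTreg arrays against 12.75 on the natural Treg array. Klrd1, the CD94 chain, had a log2 signal of 8.68 on the conventional and 7.69 on the vitamin C iTreg array, against 5.13 (not detected) on the natural Treg array, with 10.88 for naive CD4, the highest of the 4 arrays. Prf1, which encodes perforin, was lower, with log2 signals of 11.00 and 10.66 on the iTreg arrays against 12.82 on the natural Treg array. Without background correction Klrd1 lost its call, with a mean log2 difference of 1.14, and with probes averaged Prf1 did, with -1.12, since 1 iTreg array then fell short of 2-fold.

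The groups of genes that mark resting T cells were lower or uncalled. Of 17 detected naive and quiescence genes, 7 were called lower and none higher, with a median log2 difference of -0.70. Klf3, a repressor of the Krüppel-like family, had a log2 signal of 9.13 on the conventional and 8.38 on the vitamin C iTreg array, against 11.71 on the natural Treg array. Dapl1, a marker of naive T cells, had log2 signals of 4.94 and 4.86, both undetected, in conventional and vitamin C iTreg, against 7.99 in natural Treg and 11.33 in naive CD4. Ets1, a factor of resting lymphocytes, had log2 signals of 14.34 and 14.27 in conventional and vitamin C iTreg, against 15.55 in natural Treg. Ccr7, a lymph node homing receptor of naive cells, went the other way without reaching 2-fold, with log2 differences of 0.80 and 0.62.

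Of 8 detected GIMAP genes, a family of lymphocyte GTPases that support T cell survival, 6 were called lower and none higher, with a median log2 difference of -1.83. Gimap7 had a log2 signal of 8.61 on the conventional and 8.22 on the vitamin C iTreg array, against 12.87 on the natural Treg array, with 12.01 for naive CD4. Gimap5, whose loss shortens the life of T cells in rodents, had log2 signals of 9.12 and 8.98 in conventional and vitamin C iTreg, against 11.22 in natural Treg. Gimap9 had log2 signals of 11.66 and 11.54 on the iTreg arrays against 11.75 on the natural Treg array. The family did not move as a block, since Gimap7 was lower by 19.1-fold on the array nearer to natural Treg and Gimap9 showed no call.

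Ly6c1 and Ly6e, GPI-anchored surface antigens, were the called-lower ones of 3 detected Ly6 genes. Ly6c1 had a log2 signal of 5.56 (not detected) on the conventional and 6.36 on the vitamin C iTreg array, against 11.72 on the natural Treg array, with 12.61 for naive CD4, and its fold was at least 41.1. The other detected Ly6 gene, Ly6k, had log2 differences at or below -0.98 and -0.95.

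Of 24 detected genes of the T cell receptor complex and its proximal signalling, 5 were called lower and none higher, with a median log2 difference of -0.76. Cd247, the zeta chain that carries the signal, had a log2 signal of 8.82 on the conventional and 8.75 on the vitamin C iTreg array, against 11.02 on the natural Treg array. Rasgrp1, which links the receptor to Ras, had log2 signals of 12.66 and 12.28 in conventional and vitamin C iTreg, against 14.32 in natural Treg. Cd3d, Cd3e and Cd3g each lay below natural Treg by less than 2-fold, with log2 differences of -0.38 and -0.35, of -0.77 and -0.86 and of -0.68 and -0.73. The kinase Zap70 had log2 differences of -0.18 and -0.38. Zap70 and the CD3 chains were thus lower by less than 2-fold, while the zeta chain was lower by more. Cd3e and Cd3g lay near the list's own median.

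Of 22 detected immediate early and early activation genes, 4 (18.2%) were called higher and 5 (22.7%) lower, with a median log2 difference of -0.17. Partners of the AP-1 factor parted: Jun had a log2 signal of 11.12 on the conventional and 11.50 on the vitamin C iTreg array, against 8.73 on the natural Treg array, with 6.55 (not detected) for naive CD4, whereas Fos had log2 signals of 8.93 and 9.79 in conventional and vitamin C iTreg, against 11.63 in natural Treg and 9.53 in naive CD4. Dusp4, a phosphatase of MAP kinases, had log2 signals of 12.91 and 12.61 in conventional and vitamin C iTreg, against 9.81 in natural Treg and 5.15 (not detected) in naive CD4, and its relative Dusp2 had log2 signals of 11.52 and 10.93 in conventional and vitamin C iTreg, against 12.94 in natural Treg. Myc had log2 differences of 2.03 and 1.54, and the RNA-decay factor Zfp36 of -1.57 and -1.77. With its probes averaged, Myc had a mean log2 difference of 0.97 and no call.

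Of 14 detected genes of the SOCS, PIM and STAT5 feedback list, 1 (7.14%) was called higher and 2 (14.3%) lower, near the shares of 9.43% and 10.6% over all detected genes, with a median log2 difference of -0.08. Socs2, a STAT5 target, had a log2 signal of 14.68 on the conventional and 14.68 on the vitamin C iTreg array, against 12.65 on the natural Treg array, with 6.06 (not detected) for naive CD4. Socs3, the feedback inhibitor of gp130, had log2 signals of 10.42 and 10.47 in conventional and vitamin C iTreg, against 12.19 in natural Treg. Cish, another STAT5 target, had log2 differences of 0.85 and 0.80 and no call.

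Of 17 detected genes of the TGF-beta and SMAD response list, 1 (5.88%) was called higher and 2 (11.8%) lower. The shares over all detected genes were 9.43% and 10.6%, and the list's median log2 difference was -0.11. Id1, a target of BMP and TGF-beta signals, had a log2 signal of 9.13 on the conventional and 8.74 on the vitamin C iTreg array, against 6.09 (not detected) on the natural Treg array. Itgae and Id3 were the lower ones. Skil and Tgif1, feedback regulators of SMADs, had log2 differences of 0.30 and 0.04 and of 0.85 and 0.73, and Smad3 of -0.79 and -1.60.

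Of 14 detected BCL2 family genes, 5 were called higher and 2 lower, with a median log2 difference of 0.31. Pmaip1, which encodes the pro-death protein Noxa, had a log2 signal of 10.42 on the conventional and 9.68 on the vitamin C iTreg array, against 7.44 on the natural Treg array, with 5.39 (not detected) for naive CD4. Bcl2l1, which encodes the survival protein Bcl-xL, had log2 signals of 7.60 and 7.82 in conventional and vitamin C iTreg, against 6.55 in natural Treg, and its mean log2 difference without background correction was 0.68, with no call. Mcl1, another survival protein, had log2 signals of 13.15 and 12.84 in conventional and vitamin C iTreg, against 14.37 in natural Treg. Bid, which links death receptors to mitochondria, had log2 signals of 8.38 and 8.36 in conventional and vitamin C iTreg, against 10.38 in natural Treg. In the main setting, genes that promote death and genes that protect from it were found in both directions. The protective genes called higher were Bcl2l1 and Bcl2l2. With probes averaged, Bcl2l2 had a mean log2 difference of 0.86 and no call.

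Type I interferon signals switch on a set of antiviral genes, many of which hold a repeated GAAA element before their start. Of 25 detected type I interferon stimulated genes, 21 were called lower and none higher, with a median log2 difference of -2.29. Of the 19 measured on all 3 arrays, 15 were called lower, with a median of -2.07. The promoters of Ifit3 and Isg15 are printed because both hold the element searched, which is GAAA, any 2 bases and GAAA again, on either strand, shown in capitals. They are the 250 bases before the RefSeq start on build GRCm38.p6, 5′ to 3′ on the gene's strand: Ifit3 at chr19:34583279-34583528, plus strand, and Isg15 at chr4:156200819-156201068, minus strand.
Ifit3: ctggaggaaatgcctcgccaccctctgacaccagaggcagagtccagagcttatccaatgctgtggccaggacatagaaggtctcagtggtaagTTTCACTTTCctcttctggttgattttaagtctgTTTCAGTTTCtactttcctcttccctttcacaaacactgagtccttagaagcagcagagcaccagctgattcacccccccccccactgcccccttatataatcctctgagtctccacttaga
Isg15: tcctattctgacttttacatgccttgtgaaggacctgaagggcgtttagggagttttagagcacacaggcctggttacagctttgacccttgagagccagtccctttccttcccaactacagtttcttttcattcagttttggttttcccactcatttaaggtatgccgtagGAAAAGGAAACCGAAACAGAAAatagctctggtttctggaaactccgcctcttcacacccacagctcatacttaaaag
Ifit3 holds 2 matches and Isg15 holds 3, which overlap. Of 13 called-lower genes of the list with a promoter in the RefSeq table, 5 (38.5%) had a match, against 3.46% of 27025 genes with a promoter. The share was 6.22% of the 675 called-lower genes, 3.73% of the 616 called-higher genes and 3.10% of the 5452 uncalled ones. A match is a run of letters and does not show that a factor bound there. In all, 6743 of the 8143 detected genes had a promoter in that table.

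Ifit3, an antiviral tetratricopeptide protein, had a log2 signal of 9.44 on the conventional and 9.37 on the vitamin C iTreg array, against 13.87 on the natural Treg array, with 14.20 for naive CD4. Isg15, a ubiquitin-like modifier, had log2 signals of 8.34 and 8.33 in conventional and vitamin C iTreg, against 11.55 in natural Treg and 11.81 in naive CD4. Rsad2, the antiviral enzyme viperin, had log2 signals of 5.10 and 4.93, both undetected, in conventional and vitamin C iTreg, against 11.22 in natural Treg and 11.64 in naive CD4. The ex vivo arrays were high for all 3 genes and both iTreg arrays were low, and Rsad2 was detected on neither iTreg array.

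Usp18, which removes Isg15 and dampens the receptor, had a log2 signal of 8.81 on the conventional and 8.58 on the vitamin C iTreg array, against 13.23 on the natural Treg array. Irf7, the amplifier of the response, had log2 signals of 8.06 and 8.05 in conventional and vitamin C iTreg, against 11.36 in natural Treg. Irf9, a DNA-binding factor of interferon signalling, had log2 signals of 11.15 and 11.34 in conventional and vitamin C iTreg, against 12.45 in natural Treg. With probes averaged its mean log2 difference was -1.05 and with median centring -1.10, with no call in either. Stat2, which carries the type I interferon signal to the nucleus, had log2 differences of -1.30 and -0.88 and no call. Usp18 and Irf7 differed by more than Irf9 and Stat2 did, on both iTreg arrays.

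Of 12 detected members of the list of interferon gamma induced GTPases with Irf1, 1 was called lower and none higher, with a median log2 difference of -0.65. The median was -0.95 on the conventional and -0.22 on the vitamin C array. Gbp7 was the called one, with a log2 signal of 7.30 on the conventional and 8.42 on the vitamin C iTreg array, against 11.09 on the natural Treg array. Gbp2 had log2 signals of 12.78 and 14.00 on the iTreg arrays against 13.43 on the natural Treg array, and Igtp had log2 signals of 13.52 and 14.35 on the iTreg arrays against 14.01 on the natural Treg array.

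Of 17 detected genes of MHC class I processing, 5 were called lower and none higher, with a median log2 difference of -0.52. H2-K1, a classical class I heavy chain, had a log2 signal of 9.38 on the conventional and 9.65 on the vitamin C iTreg array, against 11.17 on the natural Treg array, and Nlrc5, the transactivator of class I genes, had log2 signals of 10.81 and 11.71 in conventional and vitamin C iTreg, against 12.72 in natural Treg. The call of Nlrc5 was lost without background correction, with a mean log2 difference of -1.42, and with median centring, with -1.34. B2m, the light chain of every class I molecule, had log2 signals of 15.55 and 15.90 on the iTreg arrays against 15.97 on the natural Treg array, with no call. H2 genes resemble one another, so probes of this family may read more than 1 member.

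Cell division genes formed the group with the highest median. Of 21 detected mitosis and spindle genes, 17 were called higher and none lower, with a median log2 difference of 2.84. Many such genes carry the cell cycle genes homology region, on which the DREAM complex acts to silence them in resting cells. Promoters of Cdk1 and Top2a are printed because each holds 2 matches of its letters TTTGAA, searched on both strands and shown in capitals. They too are the 250 bases before the RefSeq start on GRCm38.p6, 5′ to 3′ on the gene's strand: Cdk1 at chr10:69352913-69353162, minus strand, and Top2a at chr11:99024190-99024439, minus strand.
Cdk1: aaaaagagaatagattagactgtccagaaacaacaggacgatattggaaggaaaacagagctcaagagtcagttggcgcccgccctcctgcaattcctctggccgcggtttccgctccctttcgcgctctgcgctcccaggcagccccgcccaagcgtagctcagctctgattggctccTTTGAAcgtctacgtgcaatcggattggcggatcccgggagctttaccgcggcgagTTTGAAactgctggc
Top2a: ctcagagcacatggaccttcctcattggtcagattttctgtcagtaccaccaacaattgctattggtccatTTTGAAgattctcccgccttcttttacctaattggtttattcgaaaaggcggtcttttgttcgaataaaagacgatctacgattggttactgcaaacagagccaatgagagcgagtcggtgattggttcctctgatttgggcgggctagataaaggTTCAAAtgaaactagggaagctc
Of 15 called-higher mitosis genes with a promoter in the table, 7 (46.7%) held TTTGAA, against 18.3% of all genes with a promoter. Among detected genes the share was 16.6% of the called-higher, 11.3% of the called-lower and 12.3% of the uncalled genes.

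Cdk1, the kinase that drives entry into mitosis, had a log2 signal of 11.36 on the conventional and 11.45 on the vitamin C iTreg array, against 7.52 on the natural Treg array, with 6.06 (not detected) for naive CD4. Top2a, which untangles chromosomes, had log2 signals of 12.87 and 13.03 in conventional and vitamin C iTreg, against 9.41 in natural Treg and 8.29 in naive CD4. Kif11, a spindle motor, had log2 signals of 10.89 and 10.97 in conventional and vitamin C iTreg, against 7.19 in natural Treg. For all 3 genes natural Treg lay between iTreg and naive CD4.

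Of 34 detected DNA replication and nucleotide synthesis genes, 18 were called higher and none lower, with a median log2 difference of 1.24. Mcm10, a replication initiation factor, had a log2 signal of 11.63 on the conventional and 11.88 on the vitamin C iTreg array, against 8.77 on the natural Treg array, with 5.97 (not detected) for naive CD4. Rrm2, a subunit of ribonucleotide reductase, had log2 signals of 10.63 and 10.73 in conventional and vitamin C iTreg, against 8.12 in natural Treg. Pcna, the polymerase clamp, had log2 differences of 0.53 and 0.59 and no call, and Rpa1 of -0.07 and 0.12.

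Of 18 detected cyclins, CDK inhibitors and E2F genes, 5 were called higher and none lower, with a median log2 difference of 0.07. Cdkn1a, which encodes the CDK inhibitor p21, had a log2 signal of 11.79 on the conventional and 10.55 on the vitamin C iTreg array, against 5.43 (not detected) on the natural Treg array, with 4.90 (not detected) for naive CD4. Its log2 differences were at least 5.48 and 4.23, the largest of this list. Ccne2, a cyclin of S phase entry, had log2 signals of 8.81 and 9.33 in conventional and vitamin C iTreg, against 5.59 (not detected) in natural Treg. Cdkn1b, which encodes the inhibitor p27, had log2 signals of 9.47 and 9.42 on the iTreg arrays against 10.05 on the natural Treg array, and the cyclin Ccnd3 had log2 signals of 12.39 and 12.50 on the iTreg arrays against 12.61 on the natural Treg array.

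Sterol and fatty acid synthesis was higher across most of its steps. Of 27 detected genes, 20 were called higher and none lower, with a median log2 difference of 2.08. Scd1, the desaturase that makes oleate, had a log2 signal of 13.39 on the conventional and 13.44 on the vitamin C iTreg array, against 5.62 (not detected) on the natural Treg array, with 5.62 (not detected) for naive CD4. It was detected on the iTreg arrays alone, and its fold was at least 135 on each.

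Hmgcs1, the synthase ahead of the rate-limiting step of the sterol pathway, had a log2 signal of 14.78 on the conventional and 14.75 on the vitamin C iTreg array, against 12.21 on the natural Treg array. Cyp51, which demethylates lanosterol, had log2 signals of 12.46 and 12.70 in conventional and vitamin C iTreg, against 9.28 in natural Treg. Fads2, a desaturase of polyunsaturated fats, had log2 signals of 8.87 and 9.08 in conventional and vitamin C iTreg, against 4.77 (not detected) in natural Treg. Acly, which makes the cytosolic acetyl-CoA for these pathways, had log2 signals of 13.77 and 13.77 on the iTreg arrays against 13.73 on the natural Treg array. Acly was thus at one level on the 3 arrays, while Hmgcs1, Cyp51 and Fads2 were not.

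**Figure D3:**
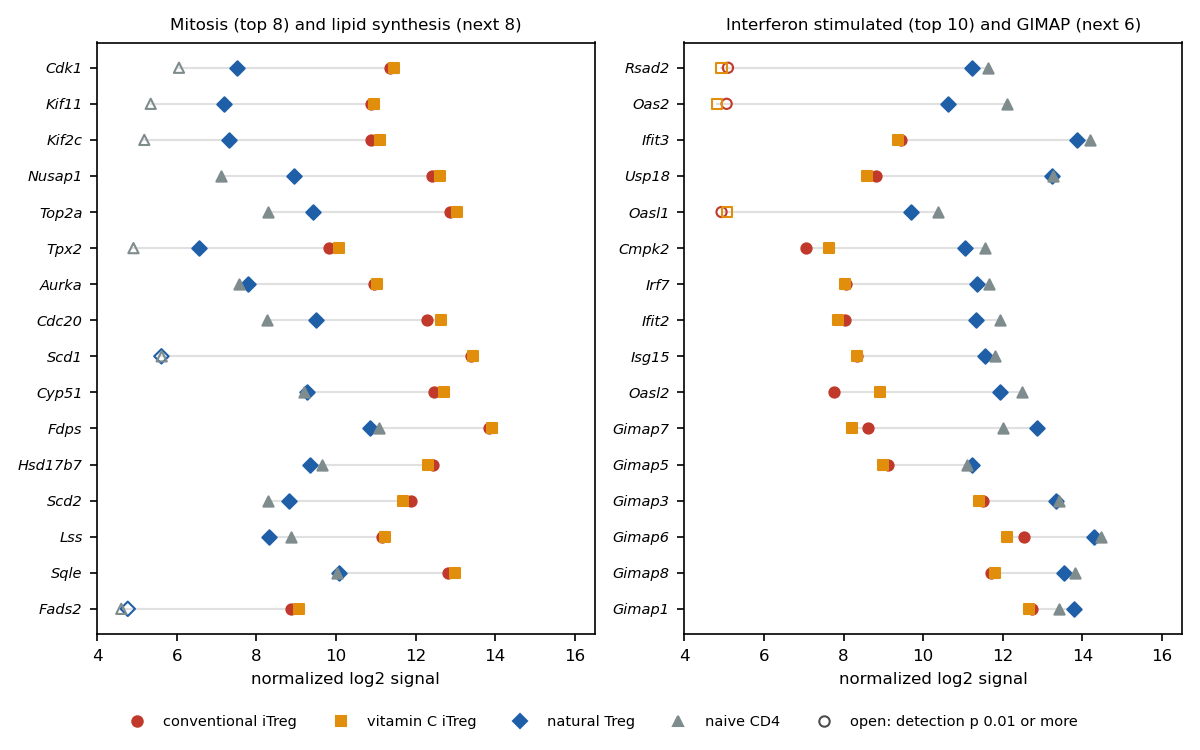
Normalized log2 signal (x axis) on the conventional iTreg, vitamin C iTreg, natural Treg and naive CD4 arrays, 1 point per array and open where not detected, of 8 mitosis and 8 lipid synthesis genes on the left and of 10 interferon stimulated and 6 GIMAP genes on the right. On the left both iTreg points lie right of both ex vivo points, and on the right they lie to the left of both.

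Of 22 detected glycolysis and HIF target genes, 13 were called higher and 2 lower, with a median log2 difference of 1.18. Hk2, the inducible hexokinase, had a log2 signal of 12.06 on the conventional and 11.81 on the vitamin C iTreg array, against 9.76 on the natural Treg array, with 6.68 for naive CD4. Vegfa, a hypoxia-induced angiogenic factor, had log2 signals of 10.38 and 9.56 in conventional and vitamin C iTreg, against 4.96 (not detected) in natural Treg. Slc2a1 and Slc2a3, the glucose transporters Glut1 and Glut3, were called in opposite directions, with log2 differences of 1.33 and 1.41 for Slc2a1 and of -1.93 and -2.31 for Slc2a3. Hif1a had log2 differences of 0.48 and 0.53 and no call.

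ATF4 is the factor that raises amino acid synthesis and uptake when amino acids are short or the endoplasmic reticulum is stressed. Of 22 detected genes of the ATF4 and unfolded protein response list, 10 were called higher and none lower, with a median log2 difference of 1.00. Asns and Chac1 are printed because each holds the core searched, TGATGNAA on either strand, in capitals. The sequences are again the 250 bases before the RefSeq start on GRCm38.p6, 5′ to 3′ on the gene's strand: Asns at chr6:7693210-7693459, minus strand, and Chac1 at chr2:119350992-119351241, plus strand.
Asns: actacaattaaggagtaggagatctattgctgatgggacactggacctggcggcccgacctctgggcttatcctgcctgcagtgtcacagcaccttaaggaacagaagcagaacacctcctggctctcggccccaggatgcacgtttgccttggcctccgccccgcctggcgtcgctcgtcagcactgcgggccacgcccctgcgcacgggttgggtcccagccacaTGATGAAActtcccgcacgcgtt
Chac1: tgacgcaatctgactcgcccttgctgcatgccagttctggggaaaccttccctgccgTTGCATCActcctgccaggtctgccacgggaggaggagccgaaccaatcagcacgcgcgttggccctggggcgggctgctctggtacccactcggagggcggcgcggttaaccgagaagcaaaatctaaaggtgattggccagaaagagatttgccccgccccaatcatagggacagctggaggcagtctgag
Of 10 called-higher genes of the list with a promoter in the table, 3 held the core, against 3.91% of all genes with a promoter, and Vldlr was the other. The share among detected genes was 2.92% of the called-higher, 3.70% of the called-lower and 2.40% of the uncalled genes.

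Asns, asparagine synthetase, had a log2 signal of 13.17 on the conventional and 12.25 on the vitamin C iTreg array, against 8.19 on the natural Treg array, with 6.25 (not detected) for naive CD4. Chac1, which degrades glutathione, had log2 signals of 9.33 and 9.46 in conventional and vitamin C iTreg, against 4.94 (not detected) in natural Treg. Cebpb and Atf5, bZIP factors of this response, had log2 differences of 3.33 and 3.33 and of 3.06 and 2.72. The chaperone Hspa5, a marker of the unfolded protein response, had log2 signals of 7.36 and 7.59 on the iTreg arrays against 7.69 on the natural Treg array, and Herpud1 had log2 signals of 13.00 and 12.80 on the iTreg arrays against 13.08 on the natural Treg array. Among members picked as examples, the amino acid genes Asns, Phgdh and Psat1 were called and the chaperones Hspa5, Hsp90b1 and Calr were not. Hspa5 was read low on the scale, where the lowest detected levels of the 3 arrays were 6.16, 6.19 and 6.31. Atf4 and Ddit3 reached no call either, with log2 differences of 1.01 and 0.79 and of 0.91 and 1.04.

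Of 13 detected amino acid and iron uptake genes, 6 were called higher and none lower. Slc6a9, a glycine transporter, had a log2 signal of 10.90 on the conventional and 9.91 on the vitamin C iTreg array, against 4.98 (not detected) on the natural Treg array, with 5.88 (not detected) for naive CD4. Slc7a5, the light chain of the leucine transporter, had log2 signals of 13.69 and 13.08 in conventional and vitamin C iTreg, against 11.58 in natural Treg. Its partner Slc3a2 had log2 differences of -0.11 and 0.11 and no call. Tfrc, the transferrin receptor, had log2 differences of 2.23 and 2.14.

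Of 15 detected aminoacyl-tRNA synthetases, 1 was called higher and none lower, with a median log2 difference of 0.76. Mars1 was the called one, with a log2 signal of 11.82 on the conventional and 11.79 on the vitamin C iTreg array, against 10.43 on the natural Treg array. Gars, Eprs, Iars, Aars, Nars and Sars were past 2-fold above natural Treg on the conventional iTreg array and short of it on the vitamin C array, as in Aars with log2 differences of 1.31 and 0.87.

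Of 24 detected antioxidant and metallothionein genes, 5 were called higher and 1 lower, with a median log2 difference of 0.58. Mt1, a zinc-binding metallothionein, had a log2 signal of 15.00 on the conventional and 15.16 on the vitamin C iTreg array, against 9.40 on the natural Treg array, with 5.20 (not detected) for naive CD4. Mt2, its close relative, had log2 signals of 7.21 and 7.25 on the iTreg arrays against 6.16 (not detected) on the natural Treg array and reached no call. Prdx4 and Txn1, thiol reductases, had log2 differences of 1.44 and 1.91 and of 1.37 and 1.84, whereas Gsta4, a glutathione transferase, had log2 signals of 7.18 and 8.79 in conventional and vitamin C iTreg, against 10.59 in natural Treg. With its probes averaged, Txn1 had a mean log2 difference of 0.59 and no call.

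Few genes of the ribosome, proteasome and oxidative phosphorylation lists were called, though most of these lists leaned above natural Treg. Members above and below natural Treg on both iTreg arrays numbered 26 and 4 for mitochondrial ribosomal proteins and 22 and 1 for the proteasome. They numbered 34 and 5 for oxidative phosphorylation and 12 and 10 for cytosolic ribosomal proteins. None of 29 cytosolic ribosomal protein genes, of 33 mitochondrial ribosomal protein genes or of 27 proteasome genes detected was called in either direction, with median log2 differences of 0.00, 0.38 and 0.31. Atp5o was the called one of 49 oxidative phosphorylation genes, whose median was 0.21, and its own mean log2 difference was 0.61 without background correction and 0.87 with an offset of 50, where it had no call. Among 19 ribosome biogenesis genes Nop56 was called higher, with log2 signals of 12.51 and 12.38 on the iTreg arrays against 11.35 on the natural Treg array, with a median of 0.27 for the list. Of 8 reference genes 2 were called higher, Tfrc and Gapdh, and Gapdh had log2 signals of 15.32 and 15.32 on the iTreg arrays against 14.17 on the natural Treg array. Actb had log2 signals of 15.51 and 15.48 on the iTreg arrays against 15.94 on the natural Treg array, and Ywhaz had log2 signals of 14.13 and 13.95 on the iTreg arrays against 14.08 on the natural Treg array, with no call.

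Of 27 detected lysosome and autophagy genes, 3 (11.1%) were called higher and none lower, against 9.43% and 10.6% over all detected genes. Gabarapl1, an autophagosome protein, had a log2 signal of 11.89 on the conventional and 11.74 on the vitamin C iTreg array, against 9.49 on the natural Treg array, with 6.80 for naive CD4. Wipi1, which acts early in autophagosome formation, and Ctsz, a lysosomal protease, had log2 differences of at least 2.04 and 1.95 and of 1.75 and 1.97.

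Of 7 detected DNA methyltransferase and methyl-CpG binding genes, 1 (14.3%) was called higher, against 9.43% over all detected genes. The list's median log2 difference was 0.32. Uhrf1, which brings Dnmt1 to newly copied DNA, had a log2 signal of 13.05 on the conventional and 13.20 on the vitamin C iTreg array, against 11.01 on the natural Treg array, with 9.21 for naive CD4. Dnmt1 had log2 signals of 11.70 and 12.04 in conventional and vitamin C iTreg, against 11.28 in natural Treg, and Dnmt3b had log2 signals of 10.46 and 10.15 in conventional and vitamin C iTreg, against 10.74 in natural Treg. Slc23a2, a transporter of vitamin C, was called lower, with log2 signals of 6.79 and 7.13 in conventional and vitamin C iTreg, against 8.26 in natural Treg and 8.39 in naive CD4. Without background correction the mean log2 difference of Slc23a2 was -0.86, which is short of 2-fold.

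**Figure D4:**
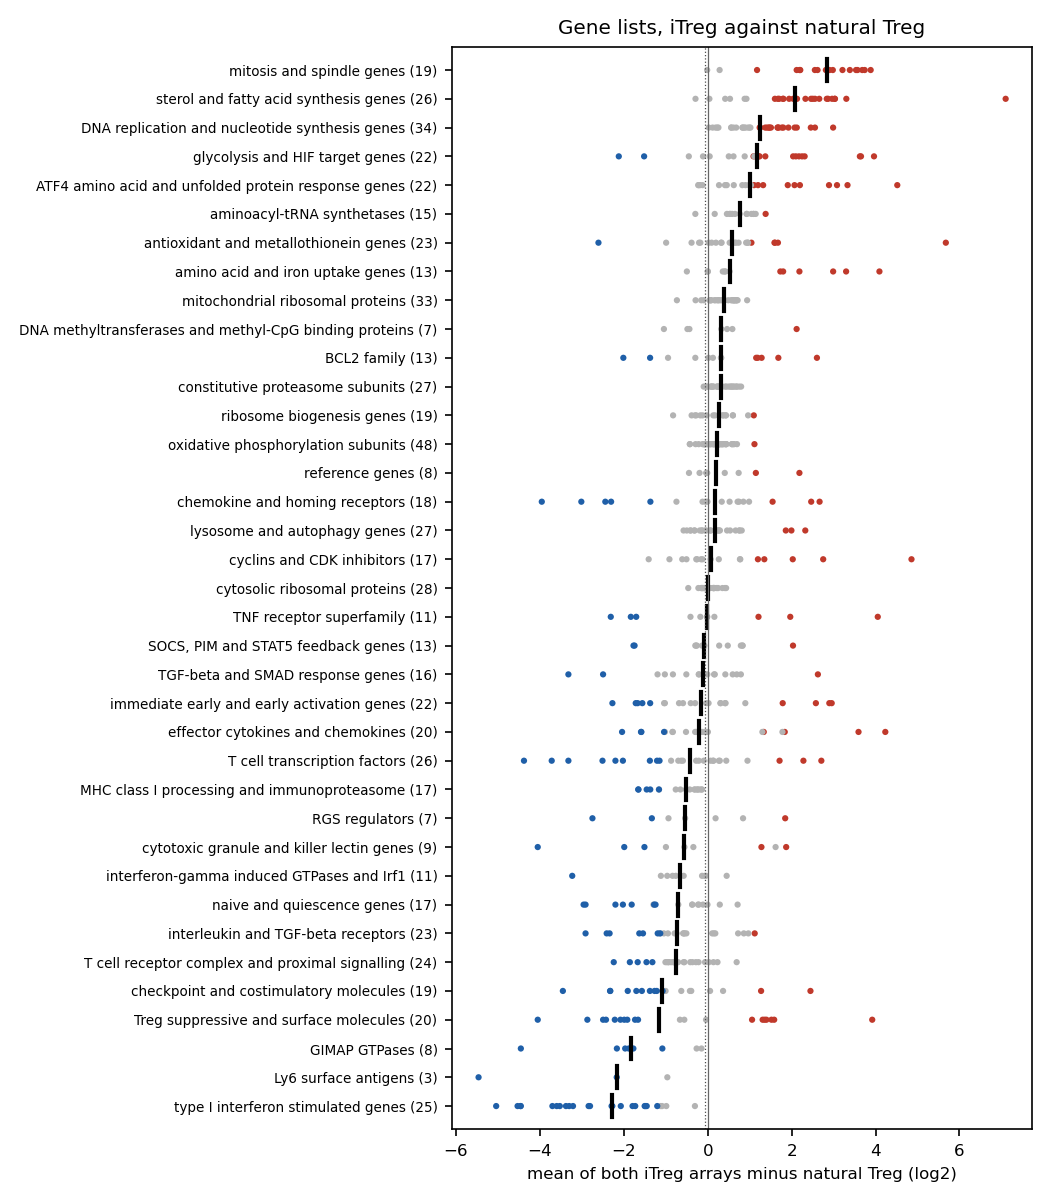
Gene lists in order of their median, with each point 1 gene, placed by the mean of both iTreg arrays minus natural Treg (log2, x axis), red where called higher, blue where called lower and grey otherwise, and a black bar at the list's median. The dotted line marks the median of all genes, and the mitosis list lies at the top and the interferon list at the bottom.

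Beyond the lists, the largest differences among genes measured on all 3 arrays were in genes of several kinds. Gja1, a connexin of gap junctions, had a log2 signal of 13.18 on the conventional and 13.48 on the vitamin C iTreg array, against 6.87 on the natural Treg array, with 5.44 (not detected) for naive CD4. Its fold was 79.4 on the array nearer to natural Treg. Bdh2, a dehydrogenase of hydroxybutyrate and siderophore metabolism, had log2 signals of 13.47 and 13.75 in conventional and vitamin C iTreg, against 7.29 in natural Treg and 5.41 (not detected) in naive CD4. Denn2b, a DENN domain exchange factor for Rab proteins, had log2 signals of 12.47 and 12.69 in conventional and vitamin C iTreg, against 6.45 in natural Treg. All 3 were near the bottom of the scale on both ex vivo arrays and high on both iTreg arrays.

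Igfbp7, a secreted protein that binds insulin-like growth factors, had a log2 signal of 13.47 on the conventional and 14.15 on the vitamin C iTreg array, against 7.72 on the natural Treg array, with 4.87 (not detected) for naive CD4. Emp1, an epithelial membrane protein, had log2 signals of 14.49 and 14.71 in conventional and vitamin C iTreg, against 9.70 in natural Treg and 4.95 (not detected) in naive CD4. Neither Igfbp7 nor Emp1 was detected in naive CD4, and natural Treg lay between. Slco4a1, an organic anion transporter, had log2 signals of 12.47 and 12.18 in conventional and vitamin C iTreg, against 7.20 in natural Treg. The others among the first 15 were Niban2, Kctd14, Slc15a3, Sema7a, Slc2a6 and Vcl, with folds of 28.8, 24.8, 20.5, 18.4, 17.6 and 15.3 on the nearer array, and Mt1, Asns and Ccl4 from the lists.

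Among genes that natural Treg did not detect, the largest bounds after Scd1 were those of Idi2, Nupr1, Nav1, Speer3 and Nrep. Idi2, an isopentenyl diphosphate isomerase, had a log2 signal of 13.09 on the conventional and 13.12 on the vitamin C iTreg array, against 5.19 (not detected) on the natural Treg array, with 5.47 (not detected) for naive CD4. It was at least 109-fold higher on each iTreg array. Nupr1, a stress-induced chromatin protein, had log2 signals of 12.94 and 13.02 in conventional and vitamin C iTreg, against 4.92 (not detected) in natural Treg. It was at least 99.1-fold higher in iTreg. All 5 were also undetected in naive CD4. The folds of Nav1, Speer3 and Nrep were at least 64.5, 62.3 and 51.3.

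**Figure D5:**
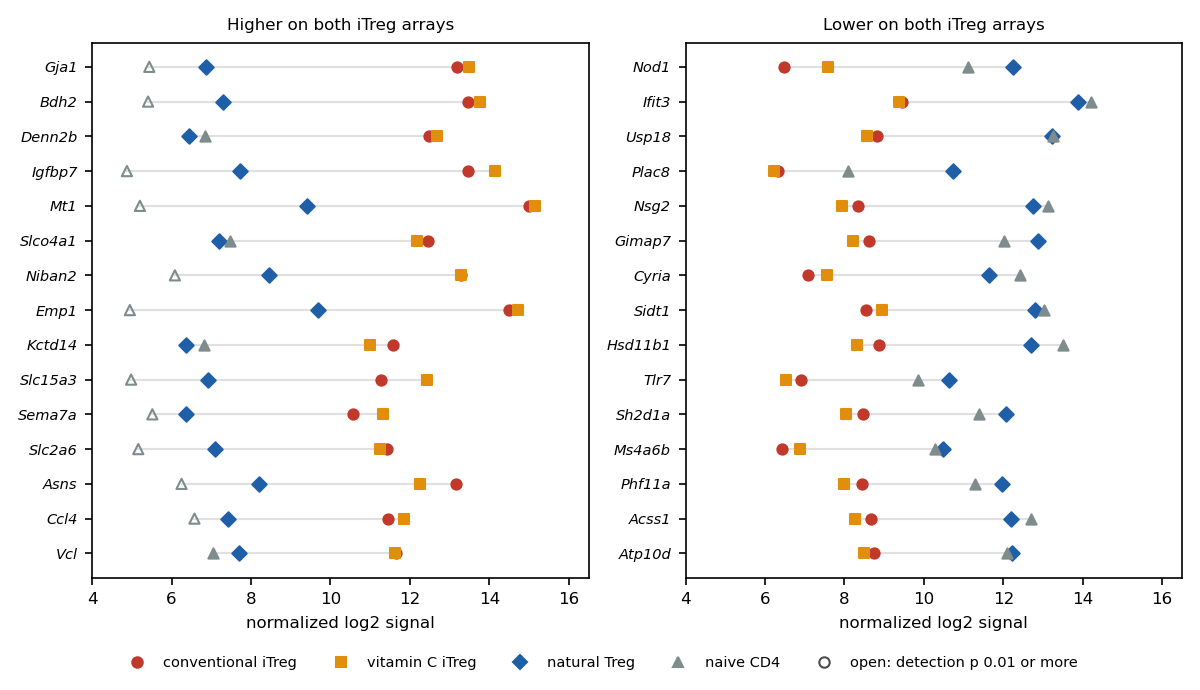
Normalized log2 signal (x axis) of the 15 called-higher and the 15 called-lower genes with the largest differences among genes measured on all 3 arrays, 1 point for each of the conventional iTreg, vitamin C iTreg, natural Treg and naive CD4 arrays, open where not detected. On the left both iTreg points lie right of both ex vivo points, and on the right they lie left of both.

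On the lower side, Nod1, a sensor of bacterial peptidoglycan, led with a log2 signal of 6.48 on the conventional and 7.58 on the vitamin C iTreg array, against 12.25 on the natural Treg array, with 11.12 for naive CD4. Tlr7, a receptor of viral RNA, had log2 signals of 6.91 and 6.51 in conventional and vitamin C iTreg, against 10.64 in natural Treg. Sidt1, a membrane protein of RNA transport, had log2 signals of 8.55 and 8.95 in conventional and vitamin C iTreg, against 12.80 in natural Treg. For Nod1 both ex vivo arrays were high, and natural Treg was the higher of them.

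Plac8 had a log2 signal of 6.32 on the conventional and 6.23 on the vitamin C iTreg array, against 10.73 on the natural Treg array, with 8.10 for naive CD4. Hsd11b1, the reductase that regenerates active glucocorticoid, had log2 signals of 8.87 and 8.31 in conventional and vitamin C iTreg, against 12.69 in natural Treg and 13.51 in naive CD4. Sh2d1a, the adaptor SAP of SLAM receptors, had log2 signals of 8.46 and 8.03 in conventional and vitamin C iTreg, against 12.08 in natural Treg. Sh2d1a was lower together with its partner receptors Slamf1, Slamf6 and Cd84, all 3 of which were called lower. The Slamf6 call rests on a bound and was lost without background correction, with a mean log2 difference of -0.96.

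The others were Nsg2, Cyria, Ms4a6b, Phf11a, Acss1 and Atp10d, with nearer folds of 21.2, 16.8, 12.1, 11.6, 11.5 and 11.2 below natural Treg, and Ifit3, Usp18 and Gimap7 from the lists. Among genes that an iTreg array did not detect, the largest bounds besides Ly6c1 and Rsad2 were those of Sytl2, Actg2, Dtx1 and Ifi214. Sytl2, which tethers secretory vesicles, had a log2 signal of 5.51 on the conventional and 5.14 on the vitamin C iTreg array, neither of them detected, against 12.14 on the natural Treg array, with 11.10 for naive CD4. It was at least 61.6-fold lower in iTreg than in natural Treg. Actg2, a smooth muscle actin, had log2 signals of 4.84 and 4.71, both undetected, in conventional and vitamin C iTreg, against 10.99 in natural Treg and 4.71 (not detected) in naive CD4, so it was detected in natural Treg alone of the 4 arrays. Dtx1, a Notch target, had log2 signals of 4.96 and 5.11, both undetected, in conventional and vitamin C iTreg, against 10.91 in natural Treg and 11.00 in naive CD4, and was thus read alike in both ex vivo populations.

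Markers of other cell types were read on the same arrays. Of 13 B cell markers with a probe, 4 were detected: 2 on each iTreg array and 4 on the natural Treg array. The markers' deposited intensities were also summed, without background correction or normalization and with undetected markers included. These sums were 6299 and 5961 on the iTreg arrays and 3936 on the natural Treg array. Of the detected markers, H2-Ab1 and Cd74 were higher on both iTreg arrays, and Cd79b and H2-Aa were lower. Cd74 had log2 signals of 11.56 and 11.26 on the iTreg arrays against 10.35 on the natural Treg array. Ms4a1, Pax5 and Cd79a were detected on none of the 3. The MHC class II partners parted, since H2-Ab1 had a log2 signal of 10.51 on the conventional and 10.34 on the vitamin C iTreg array, against 7.96 on the natural Treg array, with 8.54 for naive CD4, whereas H2-Aa had log2 signals of 4.81 and 4.98, both undetected, in conventional and vitamin C iTreg, against 7.36 in natural Treg and 8.12 in naive CD4. Cd79b, a chain of the B cell receptor, had log2 signals of 5.95 and 5.51, both undetected, in conventional and vitamin C iTreg, against 9.97 in natural Treg and 7.60 in naive CD4. The call of H2-Aa was lost without background correction, with a mean log2 difference of -0.61.

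Of 12 myeloid and dendritic cell markers with a probe, 5 were detected, 4 on each of the 3 arrays. Their deposited intensities, summed in the same way, were 7188 and 9192 on the iTreg arrays and 5360 on the natural Treg array. Siglech, of plasmacytoid dendritic cells, had a log2 signal of 6.53 on the conventional and 6.80 on the vitamin C iTreg array, against 8.39 on the natural Treg array, and Lyz1, a lysozyme, had log2 signals of 4.78 and 4.75, both undetected, in conventional and vitamin C iTreg, against 8.46 in natural Treg. With probes averaged, neither was called, and the mean log2 difference of Siglech was -0.53. Cst3, which encodes cystatin C and was among the detected markers, had log2 signals of 12.28 and 12.54 on the iTreg arrays against 11.56 on the natural Treg array, and Fcer1g, given further on, was detected on the iTreg arrays alone. Cd14, Itgam and Itgax were detected on none. Hba-a1, a haemoglobin chain, was the 1 erythroid marker detected, with log2 signals of 4.98 and 4.79, both undetected, in conventional and vitamin C iTreg, against 8.12 in natural Treg and 9.10 in naive CD4.

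Of 8 CD8 T and NK cell markers, 3 were detected. The deposited intensities of all 8, summed in the same way, were 10826 and 6071 on the iTreg arrays and 4529 on the natural Treg array. Cd8a, Gzma, Ncr1 and Eomes were detected on none of the 3, while Cd8b1 had log2 signals of 10.34 and 10.90 on the iTreg arrays against 11.41 on the natural Treg array. The other detected markers went the other way, with log2 differences of 2.47 and 0.77 for Nkg7, which had no call, and of at least 2.36 and 1.38 for Klrd1, which was called higher. No plasma cell marker was detected on any array. Of 8 neutrophil markers, Ltf alone was detected, on the iTreg arrays only, with log2 differences of at least 2.23 and 0.97 and no call. The platelet marker Itga2b was detected on the conventional iTreg array alone. Pecam1, of the stroma and endothelium list, was detected on all 4 arrays, with log2 differences of -0.68 and -0.87 and no call. The share of these other cells in the lower or higher calls was not tested.

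Of the genes past 2-fold on 1 iTreg array alone, those with the largest gap between the iTreg arrays are given here. The neuropeptide gene Gal had a log2 signal of 9.31 on the conventional and 7.01 on the vitamin C iTreg array, against 4.89 (not detected) on the natural Treg array. Nkg7, a granule protein of cytotoxic cells, had log2 signals of 12.93 and 11.23 in conventional and vitamin C iTreg, against 10.46 in natural Treg and 6.24 (not detected) in naive CD4. Xcl1, a chemokine for cross-presenting dendritic cells, had log2 signals of 9.35 and 7.71 in conventional and vitamin C iTreg, against 6.75 in natural Treg. The log2 differences were at least 2.99 and 0.70 for Gal, which was not detected in natural Treg, so that its vitamin C difference is not bounded from above. They were 2.47 and 0.77 for Nkg7, 2.60 and 0.96 for Xcl1 and 2.13 and 0.64 for Tmem51, above natural Treg on both arrays and past 2-fold on the conventional array. Clec2e had log2 differences of -2.14 and -0.20.

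On the vitamin C side, Hdc, which makes histamine, had a log2 signal of 6.60 on the conventional and 9.23 on the vitamin C iTreg array, against 6.86 on the natural Treg array, with 7.56 for naive CD4. Tbx21, which encodes the Th1 factor T-bet, had log2 signals of 6.30 and 8.40 in conventional and vitamin C iTreg, against 7.08 in natural Treg and 5.25 (not detected) in naive CD4. Fcer1g, an adaptor of Fc receptors, had log2 signals of 6.29 and 8.20 in conventional and vitamin C iTreg, against 5.53 (not detected) in natural Treg. Hdc and Tbx21 lay below natural Treg on the conventional array and above it on the vitamin C array. On the conventional array both were near its lowest detected level of 6.16, so the lower side rests on dim signals. Tmprss3 and Myo3b, a protease and a myosin, had log2 differences of 0.45 and 2.42 and of at least 0.07 and 1.92. Whether any of these gaps exceeds the spread between cultures was not testable with 1 array of each.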

How the data were processed

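Gene expression was measured on 4 Illumina bead arrays, 1 per group, and 3 of them enter the comparison. The signal table deposited by the authors holds, per the file headers, 25697 probes with an intensity on a linear scale and a detection p-value per array. The median intensity of the iTreg arrays was 144 (conventional) and 157 (vitamin C), that of natural Treg 135 and that of naive CD4 132. The submitters' processing notes name GenomeStudio 2011.1, and no source used here says what it corrected. The authors' second deposited table holds log2 values, which equal the quantile-normalized log2 intensities within 5e-07 and were used as an alternative.

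The neqc function of limma 3.58.1 (R 4.3.3) corrected the background with negative controls that it infers from detection p-values, added an offset of 16, quantile-normalized the 4 arrays and took log2. Quantile normalization gives all arrays 1 distribution, so a shift of most genes one way would not be seen, and the offset pulls dim genes toward 0. The rest used Python 3.11.15, pandas 2.3.3, numpy 2.4.6 and matplotlib 3.10.9. The platform annotation named 23978 probes, each with 1 gene, 23971 matched RefSeq (GRCm38.p6), which altered 8 symbols, and 1719 probes are unnamed here. The 16590 genes were each represented by the probe with the highest mean over the 4 arrays. At the detection limit of 0.01, 7603, 7547 and 7429 genes were detected on the conventional iTreg, vitamin C iTreg and natural Treg arrays.

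A call needed at least 2-fold in the same direction on both iTreg arrays. The number of arrays limits the precision, and no test was made. The steps were tested on simulated arrays, where changes were placed only in probes well above background. That test therefore does not show how the steps perform on dim genes. Members and gene lists were chosen with earlier results of these data known. The genes named were the 15 largest differences each way among genes measured on all 3 arrays, the 6 largest bounds each way, up to 4 called members per list and direction, a set of Treg and DNA methylation genes, the 5 genes with the largest gap between the iTreg arrays called on 1 of them alone, and a set of further list members and marker genes. Other list members and exceptions were named after their values were seen. The 11 alternatives changed the background correction, offset, normalization, source table, arrays, detection limit, filter, probe rule or iTreg array.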

Additional observations from a re-analysis of the deposited data

Results flagged for a closer look

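In 17 named genes the iTreg arrays lay on opposite sides of natural Treg, each detected on all 3 arrays. The gap, vitamin C minus conventional iTreg in log2 units, was 2.63 for Hdc, 2.10 for Tbx21, 1.28 for Cd86, 1.23 for Gbp2, 1.10 for Lag3, 0.83 for Igtp, 0.36 for Pdcd1, 0.32 for Ccr6, 0.30 for Tnfrsf4, 0.22 for Slc3a2, 0.19 for Rpa1 and 0.11 for Tnf. It was -0.45 for Rora, -0.43 for Tnfrsf18, -0.30 for Tgfbr1, -0.21 for Foxp3 and -0.18 for Ywhaz. Among these, Hdc, Tbx21, Cd86, Gbp2 and Lag3 differed by at least 2-fold between the iTreg arrays, and in the other genes the gap was smaller. The difference between the iTreg arrays was not tested, since each treatment had 1 array.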

How the results depend on the processing

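Without background correction, and with the authors' normalized values, 603 genes were called higher and 607 lower, against 768 and 863 in the main setting. The counts were 696 and 742 with an offset of 50, 909 and 667 with median centring, and 761 and 853 with the 3 arrays normalized without naive CD4. They were 839 and 921 at a detection limit of 0.05, 560 and 648 for genes detected on all 3 arrays, 947 and 984 with no filter, and 694 and 726 when each gene's probes were averaged. On the conventional array alone they were 893 and 963, and on the vitamin C array alone 943 and 1048. All of these lay within 1.5 times the main counts. The median of the Treg suppressive and surface list was -0.56 and that of the RGS list -0.18 among genes detected on all 3 arrays, against -1.16 and -0.54 in the main setting, by the construction of that alternative, which leaves out genes measured on 1 side alone. The median of the cytotoxic list was -0.047 with no filter, against -0.56. Of 207 named called genes, 20 lost the call without background correction or with the authors' values, 12 with probes averaged, 9 with the larger offset and 7 with median centring. The 20 were Atp5o, Bcl2l1, Bik, Ccne1, Ccr4, Cxcl10, Fgl2, Gss, H2-Aa, H2-D1, Ier2, Ifng, Klrd1, Mcph1, Nlrc5, Serpinb6b, Slamf6, Slc23a2, Tmem168 and Tnfsf8. The 12 were Bcl2l2, Cdkn2c, Ifng, Irf9, Lyz1, Mcph1, Myc, Prf1, Siglech, Tmem168, Txn1 and Vldlr. The 9 were Atp5o, Bcl2l1, Bik, Ccr4, H2-Aa, Ifng, Mcph1, Nlrc5 and Slc23a2, and the 7 were Bcl11b, H2-D1, H2-M3, Ifng, Irf9, Nlrc5 and Slc23a2. Mcph1 lost its call with the 3 arrays normalized alone. The looser detection limit and no filter took away none of these calls. Detection on all 3 arrays left 159 of these genes with a value. No paired analysis was possible because each group had 1 array and the labels give no replicate numbers. The arrays give no estimate of spread, and genes near background have only bounds.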
